A study of Mus musculus with 13 samples.

Results

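The immediate early genes Fos, Fosb, Fosl1, Jun, Junb, Jund, Egr1, Ier2, Ier3 and Dusp1 were followed in polyadenylated RNA of mouse ES cells in which a phosphomimetic form of the chromatin protein CTCF could be switched on. The 10 genes were taken by symbol from the 24421 genes that both deposited count tables share, and all 10 were counted in all 4 libraries. The cells were F1-2.1 ES cells of CAST/Ei x 129/Sv/Jae background that carry a Tet-on CTCF S224E transgene in 1 clone (A2), so the +dox and the −dox cultures both hold the transgene. The S224E_plus_dox cultures received 1 μg/mL doxycycline (dox) for 6 days and the S224E_minus_dox cultures received none, and there were 2 replicates of each, numbered 1 and 2. All cultures grew in LIF medium with serum on irradiated mouse embryonic fibroblast (MEF) feeders, so the RNA comes from ES cells and feeders together. No RNA library of dox-treated cells without the transgene, or with wild-type or S224A CTCF, was analysed here, so dox and the S224E protein cannot be told apart. The study's methods call the replicates biological. They come from 1 clone, so the p-values measure the spread between cultures of that clone.

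Immediate early genes are switched on within minutes of a growth factor, serum or stress signal, without new protein synthesis. The signal runs largely through the Ras, Raf, MEK and ERK kinases and their p38 and JNK relatives, which phosphorylate factors already bound at the genes, above all serum response factor (SRF) with its ternary complex partners at CArG boxes, and CREB at cyclic AMP response elements. Fos and Jun proteins then pair as the AP-1 transcription factor, Egr1 binds GC-rich promoter elements as a zinc finger factor, and Dusp1 dephosphorylates the MAP kinases and ends the signal. The messages are short-lived.

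Positions are given in the mm9 build. Fos lies on the plus strand of chr12:86814851-86818219, Fosb on the minus strand of chr7:19888045-19895394, Ier2 on the minus strand of chr8:87185230-87186751 and Dusp1 on the minus strand of chr17:26642536-26645417. The others are Fosl1 (chr19:5447698-5455938, plus), Jun (chr4:94715727-94718913, minus), Junb (chr8:87500808-87502647, minus), Jund (chr8:73221638-73224515, plus) and Ier3 (chr17:35958658-35959856, plus), beside Egr1, whose position is given with its values. Jun, Junb, Jund and Ier2 have a single annotated exon. Genes annotated on the opposite strand overlap Fosl1 (Ccdc85b), Jun (BC042782), Jund (Gm11175) and Egr1 (Gm17507), and since the use of strand in the counting is not given in the sources used here, the counts of these 4 genes may include reads of the partner.

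The promoter sequences are shown because they hold the elements through which these genes are known to answer to signals, and because genes that share an element can be set side by side in the results. In the 500 bases before each start site, on both strands, a CArG box was found in 3 of the 10 genes (Fos, Fosb and Egr1), against 2.584% of 24344 windows of that length. The full cyclic AMP response element TGACGTCA was found in Ier2 and Dusp1 and in 2.407% of all windows, and its core TGACGT, which the full element contains, in 6 of the 10 genes (Fos, Fosb, Jun, Egr1, Ier2 and Dusp1) and in 10.697% of all windows. TGANTCA, a loose form of the AP-1 motif that takes any middle base, was matched in Fos as TGAATCA and in 12.118% of all windows. The Egr1 motif GCGNGGGCG was matched in Fosb and Jun and in 7.957% of all windows. A match is a run of letters and does not show that a factor is bound. The stretches below are read 5′ to 3′ on the strand of the gene from the NCBIM37 (mm9) genome, with matches in capitals, at chr12:86814521-86814790 (Fos, plus strand), chr7:19895430-19895724 (Fosb, minus strand), chr8:87186762-87186861 (Ier2, minus strand) and chr17:26645528-26645627 (Dusp1, minus strand).
Fos: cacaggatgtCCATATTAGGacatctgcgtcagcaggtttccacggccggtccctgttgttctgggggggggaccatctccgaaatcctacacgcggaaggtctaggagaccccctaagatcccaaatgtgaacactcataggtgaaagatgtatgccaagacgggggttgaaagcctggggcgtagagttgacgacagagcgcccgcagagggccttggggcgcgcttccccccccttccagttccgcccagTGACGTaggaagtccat
Fosb: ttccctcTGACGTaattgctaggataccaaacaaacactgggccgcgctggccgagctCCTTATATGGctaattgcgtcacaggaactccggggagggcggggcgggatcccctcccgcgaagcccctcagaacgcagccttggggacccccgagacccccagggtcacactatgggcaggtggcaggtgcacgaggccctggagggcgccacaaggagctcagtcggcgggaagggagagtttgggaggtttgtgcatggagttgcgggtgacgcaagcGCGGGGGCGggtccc
Ier2: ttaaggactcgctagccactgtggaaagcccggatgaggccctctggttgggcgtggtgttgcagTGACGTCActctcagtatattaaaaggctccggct
Dusp1: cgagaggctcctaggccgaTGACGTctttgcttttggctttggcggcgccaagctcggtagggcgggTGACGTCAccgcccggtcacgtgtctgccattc
In Fos the CArG box lies 320 to 311 bases upstream of the start and the TGACGT core 77 to 72 bases upstream. In Fosb the TGACGT core lies 323 to 318, the CArG box 272 to 263 and a match to GCGNGGGCG 50 to 42 bases upstream. The full TGACGTCA lies 45 to 38 bases upstream in Ier2 and 143 to 136 bases upstream in Dusp1, where a separate TGACGT core lies 191 to 186 bases upstream.

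The libraries held 22899107 to 30206085 counted reads, and the 10 genes took 0.259% to 0.350% of them. Their smallest count was 360 and their largest 21102, for which counting alone gives an error of 5.27% and 0.688%, which is less than most differences between replicate libraries given below. Ctcf, whose counts do not separate the endogenous gene from the transgene, stood at 327 and 329 CPM (reads of a gene per megaread of library, after TMM scaling) with dox and 295 and 304 CPM without (log2 fold change 0.13, SE 0.09, adjusted p = 0.475 in edgeR). The study found the glutamate codon of S224E in a minority of its RNA-seq reads over that codon and describes the exogenous expression as modest. The ES cell markers were high in all 4 libraries, at a summed 6877 and 7403 CPM with dox and 6132 and 6298 CPM without. The 25 feeder fibroblast markers summed to 2036 CPM in +dox replicate 1, against 966 CPM in +dox replicate 2 and 752 and 829 CPM in the −dox libraries. Of these markers 25 of the 25 were highest in +dox replicate 1, against 5044 of the 20044 genes tested. The list of 11 primitive streak markers had 7 genes lower with dox in edgeR, out of 120 genes of 20044 called at an adjusted p under 0.01 (16 higher and 104 lower).

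The immediate early genes differed widely in level among themselves. Per kilobase of transcript, Ier2, an early response gene with a nuclear product, had the highest level, with a mean of 312 CPM per kb over the 4 libraries (268 to 364). Egr1 followed at 243 (211 to 274). The ranges of these neighbours overlap, but Ier2 lay above Egr1 in each of the 4 libraries. Jund at 164 (126 to 212), Junb at 152 (123 to 167), Fos at 145 (110.7 to 203) and Jun at 125 (91.5 to 156) formed a middle group. The ranges of this group over libraries overlap and its order changed between libraries, so that the order is not settled. The highest library of Jund reached the lowest of Egr1, but Egr1 lay above Jund in each of the 4 libraries. Dusp1 lay at 105 CPM per kb (92.1 to 115), within the range of Jun. Fosb was lower at 45.9 (39.2 to 57.2), and Ier3 at 18.8 (14.2 to 26.1) and Fosl1 at 10.6 (7.90 to 15.8) were the lowest. The ranges of Ier3 and Fosl1 overlap, but Ier3 lay above Fosl1 in each of the 4 libraries.

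**Figure D1:**
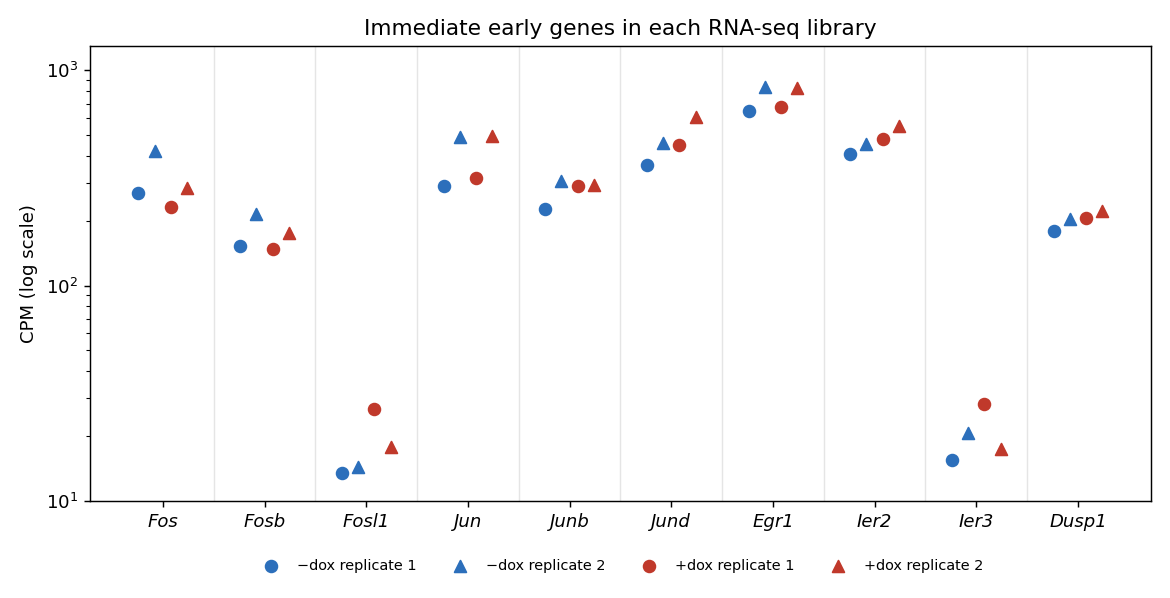
Expression of the 10 immediate early genes in CPM on a log axis, with 1 point per library and the +dox and −dox libraries of each replicate number marked apart. The points of Egr1 lie between 646 and 841 CPM and those of Fosl1 between 13.4 and 26.8 CPM, and for most genes the conditions overlap.

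The comparison of +dox with −dox cultures asks whether the genes respond to induction of CTCF S224E. None of the 10 genes passed the threshold. edgeR's quasi-likelihood test called 0 at an adjusted p under 0.01, where 0.599% of all genes tested were called, and DESeq2 also called 0, where 2.71% were called. At an unadjusted p under 0.05, edgeR gave 4 of the 10, with Fosl1, Jund and Ier2 higher and Fos lower with dox, against 17.8% of all genes. The log2 fold changes ran from -0.43 for Fos to 0.68 for Fosl1, with a median of 0.15 beside -0.0011 for all genes, and 8 of 10 were above 0 (7 with libraries scaled by total counts, 5 without −dox replicate 1 and 9 without −dox replicate 2). Both +dox libraries were above both −dox libraries in 3 genes (Fosl1, Ier2 and Dusp1), against 26.1% of the 13911 genes that averaged 1 CPM or more, and below them in 0 genes, against 27.7%. Since RNA was taken from whole cultures, fewer cells of a type and less RNA per cell cannot be told apart here or below.

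**Figure D2:**
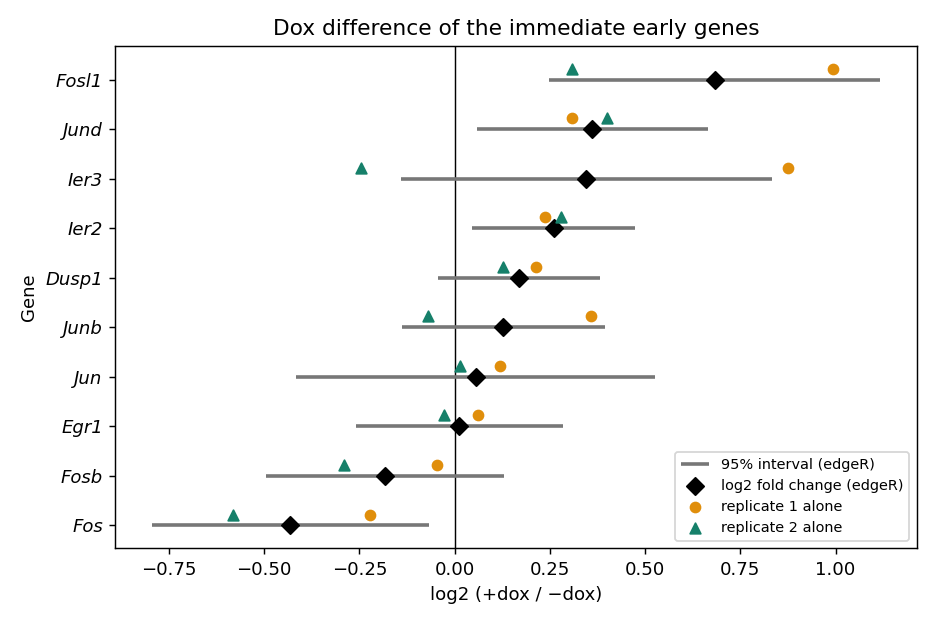
Log2 fold change of +dox over −dox for the 10 immediate early genes, with 95% confidence intervals from edgeR's quasi-likelihood fit and the differences within replicate 1 and within replicate 2 as separate points. The interval of Fosl1 runs from 0.25 to 1.12 and that of Fos from -0.79 to -0.07, and the differences within replicates 1 and 2 lie far apart for Fosl1 and Ier3.

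In the Fos family, the partners of Jun in AP-1, Fos and Fosb were lower on average with dox and Fosl1 higher, and none passed the threshold. Fos, the founding member of the family, had 231 and 283 CPM in the +dox libraries and 269 and 423 CPM in the −dox libraries (replicates 1 and 2), which gives 257 ± 36.6 CPM and 346 ± 109 CPM (SD, n = 2). The high library is −dox replicate 2, and the groups overlap, although Fos was lower with dox within replicate 1 (log2 difference -0.22) and within replicate 2 (-0.58). The fold was 0.742 (log2 fold change -0.43, SE 0.17, adjusted p = 0.192 in edgeR's quasi-likelihood test and 0.569 in DESeq2). Leaving out +dox replicate 2 gave a log2 fold change of -0.58, and leaving out −dox replicate 2 gave -0.07, so the size of the ratio depends on single libraries. Fosb, a close relative of Fos, had 148 and 176 CPM with dox and 153 and 216 CPM without, and again −dox replicate 2 was highest. Its log2 fold change was -0.18 (SE 0.14, adjusted p = 0.572 in edgeR), with a 95% interval from -0.50 to 0.13. Fos, Fosb and Egr1, the genes with a CArG box, were all highest in −dox replicate 2, and so was Junb, which has none in its window.

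Fosl1, which encodes Fra-1, had 26.8 and 17.8 CPM with dox and 13.4 and 14.3 CPM without. Both +dox libraries were higher, and +dox replicate 1 stood above all others. The means were 22.3 ± 6.37 and 13.9 ± 0.653 CPM (SD, n = 2), a ratio of 1.60 with an adjusted p of 0.0914 in edgeR and 0.0551 in DESeq2. Within replicate 1 the log2 difference was 0.99 and within replicate 2 it was 0.31. Its log2 fold change was 0.95 without +dox replicate 2. It was 0.36 without +dox replicate 1, the library in which the 25 feeder markers were highest.

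The Jun family supplies the partners of Fos in AP-1, and Jun itself showed the widest spread of the 10 genes between replicates. Jun had 317 and 497 CPM with dox and 291 and 492 CPM without, so that replicate 2 was about as far above replicate 1 in both conditions, and its log2 fold change was 0.06 (SE 0.22, adjusted p = 0.924 in edgeR). The 95% interval of the difference, -0.42 to 0.53, includes changes of either direction. Junb, which can oppose Jun on shared targets, had 291 and 292 CPM with dox and 227 and 307 CPM without. The +dox values lie between the −dox ones (log2 fold change 0.13, SE 0.12, adjusted p = 0.659 in edgeR). Jund, the most constantly expressed member in many cells, had 450.1 and 609.8 CPM with dox and 363 and 462 CPM without. It was higher with dox by 0.31 within replicate 1 and 0.40 within replicate 2 on the log2 scale, but the groups overlap. Its ratio of 1.28 gave an adjusted p of 0.190 in edgeR and 0.158 in DESeq2. The log2 fold change of Jund was 0.56 without +dox replicate 1 and 0.13 without +dox replicate 2.

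Egr1, the zinc finger factor on the plus strand of chr18:35020861-35024610, was the most abundant of the 10 messages in CPM, with 675 and 825 CPM with dox and 646 and 841 CPM without. The ranges cover each other, and the log2 fold change was 0.01 (SE 0.12, adjusted p = 0.968 in edgeR), with a 95% interval from -0.26 to 0.28 and a change of sign when libraries were scaled by total counts. Of its relatives, Egr2, chosen after its values were seen, had 30.2 and 27.5 CPM with dox and 28.8 and 26.1 CPM without, a log2 fold change of 0.07. Egr3, chosen in the same way, had 14.9 and 7.05 CPM with dox and 11.5 and 9.72 CPM without. Its log2 difference was 0.37 within replicate 1 and -0.46 within replicate 2. Egr4 lay lower in both +dox libraries (6.09 and 3.55 CPM against 12.6 and 8.33 CPM). The log2 fold change of Egr4 was -1.12 (SE 0.29, adjusted p = 0.0576 in edgeR and 0.0309 in DESeq2).

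Ier2 and Dusp1, the genes whose promoters hold the full TGACGTCA, were higher with dox within both replicates. So were Fosl1 and Jund, which have none in their window. Jun, whose window holds the core TGACGT but not the full element, was higher within replicate 1 (log2 difference 0.12). Within replicate 2 Jun was nearly level (0.015). Ier2 had 479.8 and 554 CPM with dox and 407 and 456 CPM without, with both +dox libraries higher. The ratio was 1.20, with log2 differences of 0.24 and 0.28 within replicates 1 and 2 and an adjusted p of 0.179 in edgeR. Dusp1 had 207 and 222 CPM with dox and 178 and 203 CPM without, and its replicates lay closest together of the 10 genes. Its log2 fold change was 0.17 (SE 0.10, adjusted p = 0.408 in edgeR). Ier3, an early response gene linked to cell survival, had 28.3 and 17.3 CPM with dox and 15.4 and 20.6 CPM without. It was higher with dox by 0.88 on the log2 scale within replicate 1 and lower within replicate 2 (-0.24), and the adjusted p of the whole comparison was 0.471 in edgeR. Without +dox replicate 2 the log2 fold change was 0.66 and without +dox replicate 1 it was -0.05.

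For most of the genes the replicate number went with a larger difference than dox did. In 8 of 10 genes, all but Fosl1 and Ier3, replicate 2 was above replicate 1 with dox and without dox, against 29.0% of those 13911 genes, and in 0 genes was replicate 1 above in both, against 26.8%. Of these 8 genes, Junb was nearly level between the +dox libraries (log2 difference 0.007). In 6 of 10 genes (Fos, Fosb, Jun, Junb, Jund and Egr1) the mean difference between replicates exceeded the mean difference between conditions, against 36.4% of the 13911. Signs were kept in these means, so differences of opposite sign cancel, as for Ier3 (replicate 2 minus replicate 1 of -0.70 with dox and 0.42 without). Jun in replicate 2 was 1.57 times its level in replicate 1 with dox and 1.69 times without, Fos 1.22 and 1.57 times, and Egr1 1.22 and 1.30 times. Without regard to sign, the median difference within a condition was 0.36 on the log2 scale for the 10 genes and 0.16 for the 13911 genes. By that measure the spread of Jun lay at the 96.5 percentile of those genes while that of Dusp1 lay at the 44.1 percentile. The genes summed to 2853 and 3493 CPM with dox and 2563 and 3435 CPM without, so the 2 libraries numbered 2 were the higher ones in each condition. What the number stands for is not stated in the labels, and its part in the result was not tested. Of the 35 other immediate early genes on the list, 14 were above in replicate 2 in both conditions and 14 in replicate 1, to be read against the same 29.0% and 26.8%.

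**Figure D3:**
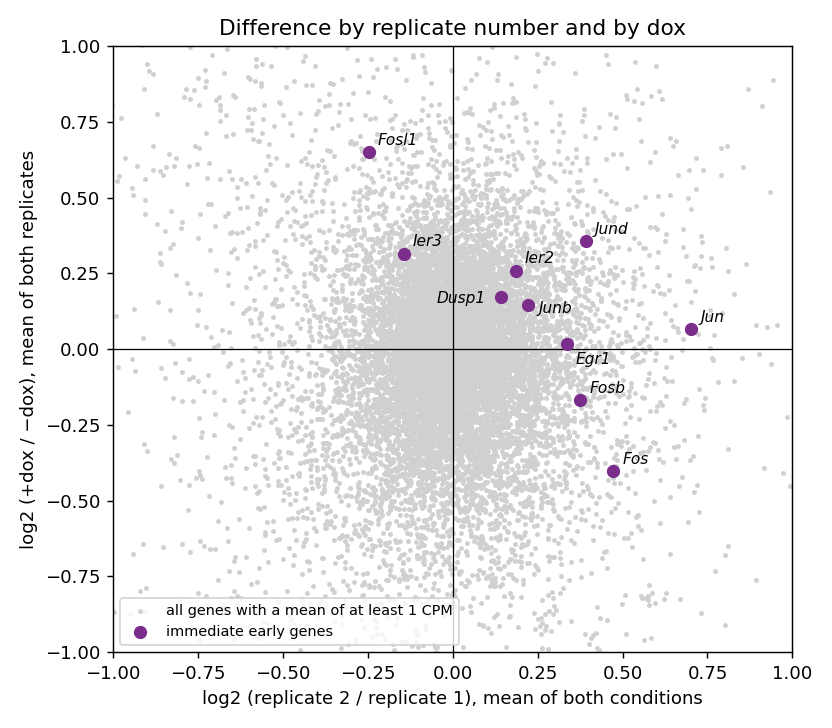
Mean log2 ratio of replicate 2 to replicate 1 (horizontal axis) and of +dox to −dox (vertical axis), for the 13911 genes averaging 1 CPM or more (grey) and the 10 immediate early genes (labelled). The axes end at 1 in either direction and 517 genes lie outside them, and Jun lies farthest to the right of the 10 genes.

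Fosl1 and Ier3 were the 2 of the 10 genes that were highest in +dox replicate 1, the library with the most RNA of feeder markers. Of all 20044 genes tested, 5044 were highest in +dox replicate 1, so the 2 of 10 do not exceed the share of all genes. Fos and Jun were lower in that library than in +dox replicate 2, and the sum of the 10 genes was higher in both libraries numbered 2. The feeder markers had a median log2 fold change of 1.24, with 1.75 within replicate 1 and 0.31 within replicate 2. In edgeR 0 of 25 were called, against 0.599% of all genes tested, and 20 had an unadjusted p under 0.05, against 17.8%. DESeq2 called 1 (Timp1) of the 23 it gave an adjusted p, against 2.71% of all genes. The part of feeder RNA in the values of Fosl1 and Ier3 was not tested.

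**Figure D4:**
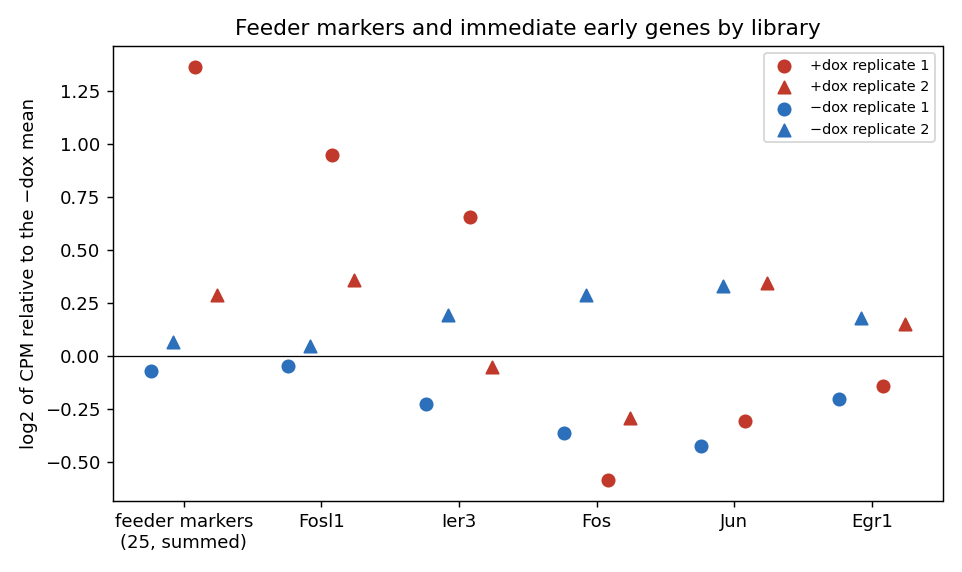
Summed level of the 25 feeder fibroblast markers and levels of Fosl1, Ier3, Fos, Jun and Egr1 in the 4 libraries, each as the log2 of CPM relative to the mean of its −dox libraries, with 1 point per library. +dox replicate 1 has the highest feeder sum, 2036 CPM, and the highest levels of Fosl1 (26.8 CPM) and Ier3 (28.3 CPM).

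The genes that act with or upstream of these 10 are read against the same shares of all genes, 0.599% called by edgeR, 2.71% by DESeq2 and 17.8% at an unadjusted p under 0.05 in edgeR. Of 35 other immediate early genes, 0 were called by edgeR or DESeq2, and 9 were higher and 4 lower at an unadjusted p under 0.05 in edgeR, with a median log2 fold change of 0.10. The orphan nuclear receptor genes Nr4a2 (14.1 and 3.77 CPM with dox, 4.22 and 3.15 CPM without) and Nr4a3 (10.97 and 1.97 CPM against 4.85 and 2.39 CPM) had the highest ratios and were high in +dox replicate 1. At the low end, Tiparp, a target of the aryl hydrocarbon receptor, had 58.1 and 50.3 CPM with dox and 77.2 and 69.2 CPM without (log2 fold change -0.43, SE 0.12, adjusted p = 0.0763 in edgeR), in addition to Egr4. Of 13 AP-1 partners, which form dimers with Fos or Jun, edgeR and DESeq2 called 0, and 1 was higher at an unadjusted p under 0.05, with a median of -0.09. The stress-induced factor Atf3 had 34.8 and 37.1 CPM with dox and 22.8 and 30.2 CPM without (log2 fold change 0.44, adjusted p = 0.150 in edgeR), and Jdp2, which can repress AP-1 sites, 6.80 and 8.06 CPM against 8.38 and 12.3 CPM. Maf (2.49 and 0.83 CPM with dox, 1.74 and 0.60 CPM without) and Batf3 (1.15 and 1.14 CPM against 1.34 and 1.75 CPM), both low, completed the highest and lowest ratios of the list.

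Of 12 regulators of immediate early transcription, such as the CREB coactivators, edgeR and DESeq2 called 0, with 2 higher and 2 lower at an unadjusted p under 0.05 and a median of 0.11. Crtc1, a CREB coactivator, had 55.2 and 53.3 CPM with dox and 41.1 and 38.2 CPM without (log2 fold change 0.45, adjusted p = 0.0661 in edgeR), while its relative Crtc3 (13.7 and 12.6 CPM against 17.4 and 18.5 CPM) and Creb1 (29.0 and 26.1 CPM against 34.8 and 39.4 CPM) lay lower in both +dox libraries. Elk3, a ternary complex partner of SRF, had 27.3 and 14.6 CPM with dox and 14.5 and 17.9 CPM without, highest in +dox replicate 1. The 24 genes of the MAP kinase cascade had a median of -0.10, with 3 higher and 5 lower at an unadjusted p under 0.05, and edgeR called 0. DESeq2 called 1 higher and 1 lower. Araf, a Raf kinase, had 222 and 223 CPM with dox and 168 and 149 CPM without (log2 fold change 0.49, SE 0.10, adjusted p = 0.0216 in edgeR and 8.48e-04 in DESeq2). Rps6ka2, an ERK-activated kinase of the RSK family, had 42.2 and 39.9 CPM with dox and 69.6 and 58.7 CPM without (log2 fold change -0.64, SE 0.13, adjusted p = 0.0211 in edgeR and 0.00109 in DESeq2). In both genes the groups do not overlap. Of the 24 cascade genes, 6 were higher and 11 lower without overlap, against 26.1% and 27.7% of the 13911 genes averaging 1 CPM or more. Of 9 other MAP kinase phosphatases, the relatives of Dusp1, edgeR and DESeq2 called 0, with 1 higher and 2 lower at an unadjusted p under 0.05. Dusp8 (69.2 and 105.8 CPM with dox, 57.9 and 67.3 CPM without) had the highest ratio and Dusp4 (80.1 and 45.7 CPM against 119 and 77.1 CPM) the lowest. Dusp10 had 21.3 and 20.2 CPM with dox and 15.1 and 19.1 CPM without, and Dusp9 148 and 197 CPM against 193 and 244 CPM.

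The mean pattern of the 10 genes, as log2 CPM centred on each gene's mean, was 0.02 and 0.12 with dox and -0.27 and 0.13 without, so −dox replicate 1 was the library that stood low. By Euclidean distance over the 4 libraries, the 5 genes nearest to it among 9960 others averaging 10 CPM or more were D430020J02Rik (distance 0.0396), Zcrb1 (0.0421), Zscan18 (0.0540), Ficd (0.0609) and Adamts7 (0.0621). With 4 libraries, many genes lie near any such pattern, and the distances are given as a description.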

How the data were processed

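Per the labels and the study's methods, the authors' pipeline for the poly(A) libraries comprised cutadapt for trimming, TopHat2 for mapping against mm9, a step that takes out PCR duplicates, and HOMER for per-gene exon counts from unique reads. Tool versions and the use of strand are not given in the sources used here. The deposited values are raw counts per gene, not normalized, in 1 table for each replicate number. Removing duplicates can lower the counts of the most abundant short messages.

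The tables were joined by gene symbol. For 547 genes the counted transcript differed between the tables, none of them among the 10 genes. The 20044 genes counted in 1 library or more were tested with edgeR 4.0.16 in R 4.3.3 (TMM, quasi-likelihood F-test, default deviances, no replicate block), with Benjamini-Hochberg adjustment over all of them and a threshold of 0.01. DESeq2 1.42.0, the study's tool, was an alternative. Shares of genes called by edgeR or highest in a library used the 20044 genes tested, and shares called by DESeq2 the 13826 it gave an adjusted p. Non-overlap of groups, replicate comparisons and the median over all genes used the 13911 genes averaging 1 CPM or more. Log2 CPM used a prior count of 2. Standard errors came from the test statistic. Scripts were tested on simulated data.

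The 10 genes and all lists were chosen with earlier results of these data known. Each list names its genes past the threshold in edgeR or DESeq2, or else the 2 highest and 2 lowest log2 fold changes among genes averaging 1 CPM or more. ChIP-seq and Hi-C samples were not analysed here.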

Additional observations from a re-analysis of the deposited data

How the results depend on the processing

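With 2 libraries a condition, a single library decides which of the 10 genes pass the threshold. The 10 genes had 0 calls in edgeR's quasi-likelihood test, and 0 to 3 when 1 library was left out. The 93 genes of the pathway lists had 0 calls, and 0 to 12 when 1 library was left out, and all genes had 120, and 0 to 992. Leaving out a library leaves an arm of 1, whose spread is assumed to equal that of the other arm. The counts for the pathway lists and all genes were 2 and 375 in DESeq2, 2 and 457 in edgeR's likelihood ratio test, and 3 and 573 at an adjusted p under 0.05. All genes gave 11 calls with filterByExpr and 0 with adjusted deviances. With a replicate block, edgeR called 2 of the 10 genes (Fos, log2 fold change -0.40, adjusted p = 0.00458, and Jund, 0.36, adjusted p = 0.00340), 7 pathway genes and 786 genes in all, and DESeq2 with the block called 0 of the 10 (Fos, adjusted p = 0.0281, and Jund, 0.0123), 3 and 264. The deviations of libraries with the same number correlated at 0.196 over 13911 genes. There are 2 pairs and no label for what the number marks, so the libraries of a pair are known to share only a number and a count table. Of the log2 fold changes of the 10 genes, that of Egr1 turned to -0.032 with total counts. Leaving out 1 library changed the sign of Egr1 (-0.17 to 0.21), Ier3 (-0.050 to 0.66), Jun (-0.31 to 0.48), Junb (-0.074 to 0.36) and Fosb (-0.41 to 0.085).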

Other observations

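Fosl2, a Fos relative chosen after its values were seen, was high in the same library as Fosl1 and Ier3. It had 44.8 CPM in +dox replicate 1 and 18.7 CPM in +dox replicate 2, against 29.5 and 25.7 CPM without dox, so the sign of its dox difference changed between replicates (0.60 and -0.46 on the log2 scale). Highest in +dox replicate 1 were 5 of 13 AP-1 partners, 12 of 35 other immediate early genes and 6 of 12 regulators. So were 3 of 24 cascade genes and 2 of 9 phosphatases, against 5044 of the 20044 genes tested.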
